A study of Mus musculus with 4 samples.

Results

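The genes described here encode the invariant chains of the T cell receptor complex (Cd3d, Cd3e, Cd3g and Cd247), the coreceptors (Cd4, Cd8a and Cd8b1) and 3 further surface proteins of T cells (Thy1, Cd5 and Cd6). They were chosen by name and found on the arrays through their RefSeq accessions, which gave 10 genes of 20284 genes with a matched probe. They were read by 13 probes, since Cd4, Cd8a and Cd6 had 2 probes each. A gene's main probe was the one with the highest mean signal over the 4 arrays. The antigen-binding alpha and beta chains of the receptor were not on this list and were not analysed here.

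The samples were spleens of 5-day-old mice of the outbred ICR stock, male and female. Their mothers had received carbon black nanoparticles (CB-NP, fine particles of nearly pure carbon) into the nose at gestational day 5 and again at day 9 (95 microg/kg per dose), whereas control mothers had been given distilled water (1 mL/kg). RNA was pooled within each group before labelling, and each pool was read on 1 single-colour array. Values for the 4 pools are given throughout in the order control males, exposed males, control females, exposed females. How many pups or litters entered a pool is not given in the sources used here. With a single array per pool, a difference within either sex comes without replicate spread. The errors given are scanner errors, which cover the reading of a spot only.

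T cells recognise antigen with a variable receptor that cannot signal by itself. The CD3 delta, epsilon and gamma chains and the CD247 (zeta) chain carry the tyrosine motifs that are phosphorylated when the receptor binds, and CD4 and CD8 bring the kinase Lck to it. In the spleen of newborn mice T cells arrive from the thymus after birth and gather around the arterioles to form the white pulp, while red cell and myeloid precursors still fill much of the organ. Several of these genes are not exclusive to T cells: Cd247 is also used by natural killer cells, Cd8a and Cd4 by dendritic cell subsets, Cd4 and Thy1 by innate lymphoid cells, Thy1 by stromal cells and Cd5 by B-1a cells.

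Positions linked several of the genes. On chromosome 9, Cd3g, Cd3d and Cd3e stood next to each other with no other gene between neighbours, and Thy1 lay on the same chromosome with 56 genes between it and Cd3e. Cd8a and Cd8b1 were direct neighbours on chromosome 6, Cd5 and Cd6 lay on chromosome 19 with 1 gene between them, and Cd247 was on chromosome 1. RefSeq promoter windows (build GRCm38.p6, 250 bases before to 50 after the start) were found for 6 of the 10 genes: Cd3d, Cd3e, Cd3g, Cd247, Cd8a and Cd5. The windows of the CD3 cluster are shown because these genes are neighbours that were all higher in the female CB-NP pool, and that of Cd8a because its neighbour Cd8b1 differed from it in males. Capitals mark the TCF/LEF core TCAAAG and the E-box CAGCTG on either strand.

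Cd3g (chr9:44980382-44980681, minus strand): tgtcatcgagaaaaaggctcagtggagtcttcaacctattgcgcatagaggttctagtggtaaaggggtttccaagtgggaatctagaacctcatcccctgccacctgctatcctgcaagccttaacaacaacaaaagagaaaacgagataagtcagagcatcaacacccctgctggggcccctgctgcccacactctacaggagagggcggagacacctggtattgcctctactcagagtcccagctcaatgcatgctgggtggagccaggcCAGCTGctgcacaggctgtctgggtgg
Cd3d (chr9:44981536-44981835, plus strand): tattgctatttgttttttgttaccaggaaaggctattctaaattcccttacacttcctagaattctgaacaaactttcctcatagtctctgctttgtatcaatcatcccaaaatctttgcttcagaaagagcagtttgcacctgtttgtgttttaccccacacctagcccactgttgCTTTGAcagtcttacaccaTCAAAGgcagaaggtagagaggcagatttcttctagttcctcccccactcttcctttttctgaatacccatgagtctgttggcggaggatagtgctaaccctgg
Cd3e (chr9:45009562-45009861, minus strand): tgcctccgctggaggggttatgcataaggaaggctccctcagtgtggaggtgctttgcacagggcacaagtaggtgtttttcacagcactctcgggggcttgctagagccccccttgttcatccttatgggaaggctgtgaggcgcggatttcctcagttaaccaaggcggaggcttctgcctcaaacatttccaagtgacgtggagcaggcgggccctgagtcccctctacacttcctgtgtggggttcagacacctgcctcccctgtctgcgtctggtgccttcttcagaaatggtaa
Cd8a (chr6:71373177-71373476, plus strand): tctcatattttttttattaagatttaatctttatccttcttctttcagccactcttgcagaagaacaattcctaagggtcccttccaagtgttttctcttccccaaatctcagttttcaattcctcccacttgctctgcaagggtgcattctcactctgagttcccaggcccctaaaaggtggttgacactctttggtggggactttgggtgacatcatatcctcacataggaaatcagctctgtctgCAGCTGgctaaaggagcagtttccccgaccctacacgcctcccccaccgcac

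The Cd3g and Cd3d windows faced away from each other on opposite strands with 854 bases between them. Cd3d held TCAAAG on each strand, starting 73 and 54 bases before the start site, and Cd3g and Cd8a each held CAGCTG close to the start. TCAAAG was present in 2 of the 6 windows (Cd3d and Cd247) and in 16% of 32851 windows of 300 bases, and CAGCTG in 2 of 6 and in 16.3% of all. The RUNX core TGTGGT and the TATA box TATAAA were in none of the 6, against 16.8% and 13.6% of all windows. GGAA, the ETS core, was in all 6 but also in 96% of all windows, and TGGGAA, the Ikaros core, which contains GGAA, was in 4 of 6 and in 25.6%. These are matches of letters only.

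The arrays were alike in depth of signal. Of 59305 non-control spots, between 57.3% and 59% were well above background, no spot was saturated, and all 4 arrays lay on 1 slide. Position on the slide and group cannot be told apart. The number of arrays limits the precision. Xist, a female-specific RNA of the inactive X, was well above background in the female pools only, and the Y-linked gene Ddx3y in the male pools only, at least 111-fold and at least 107-fold apart between the control pools. All 13 probes were well above background on all 4 arrays. Levels are log2 signals relative to the 75th percentile of the array, which was 335, 340, 392 and 317 intensity units. The female arrays differ here by 0.31 on the log2 scale, and this scaling enters every female difference below.

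The exposed and control pools were compared within each sex, to see how the genes differed after maternal exposure. In females all 10 were higher in the CB-NP pool, from 1.23-fold for Cd3d to 1.96-fold for Cd247, with a median log2 difference of 0.66. A difference above 0 was seen for 43.3% of 14076 genes, whose median was -0.04. At least 1.5-fold higher were 6 of the 10 (Cd3e, Cd3g, Cd247, Cd8a, Cd8b1 and Thy1), beside 4.38% of all genes, and none reached 2-fold, as 0.661% of all genes did. With normexp background correction the count at 1.5-fold was 3 (Cd3g, Cd8b1 and Thy1), and Cd3e, at 0.59 in the main setting, lay close to the threshold of 0.585. None was lower, where 56.7% of genes lay below 0 (2.51% by 1.5-fold or more, 0.433% by 2-fold or more). In males no such common direction was present: 6 were higher and 4 lower, with a median of 0.12. Of 14188 genes in the male comparison 45.2% were above 0 and 54.8% below, and no member was 1.5-fold different, as 2.57% of genes were upwards and 2% downwards (0.352% and 0.507% at 2-fold). In whole tissue, more cells of a type and more RNA per cell cannot be told apart.

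**Figure D1:**
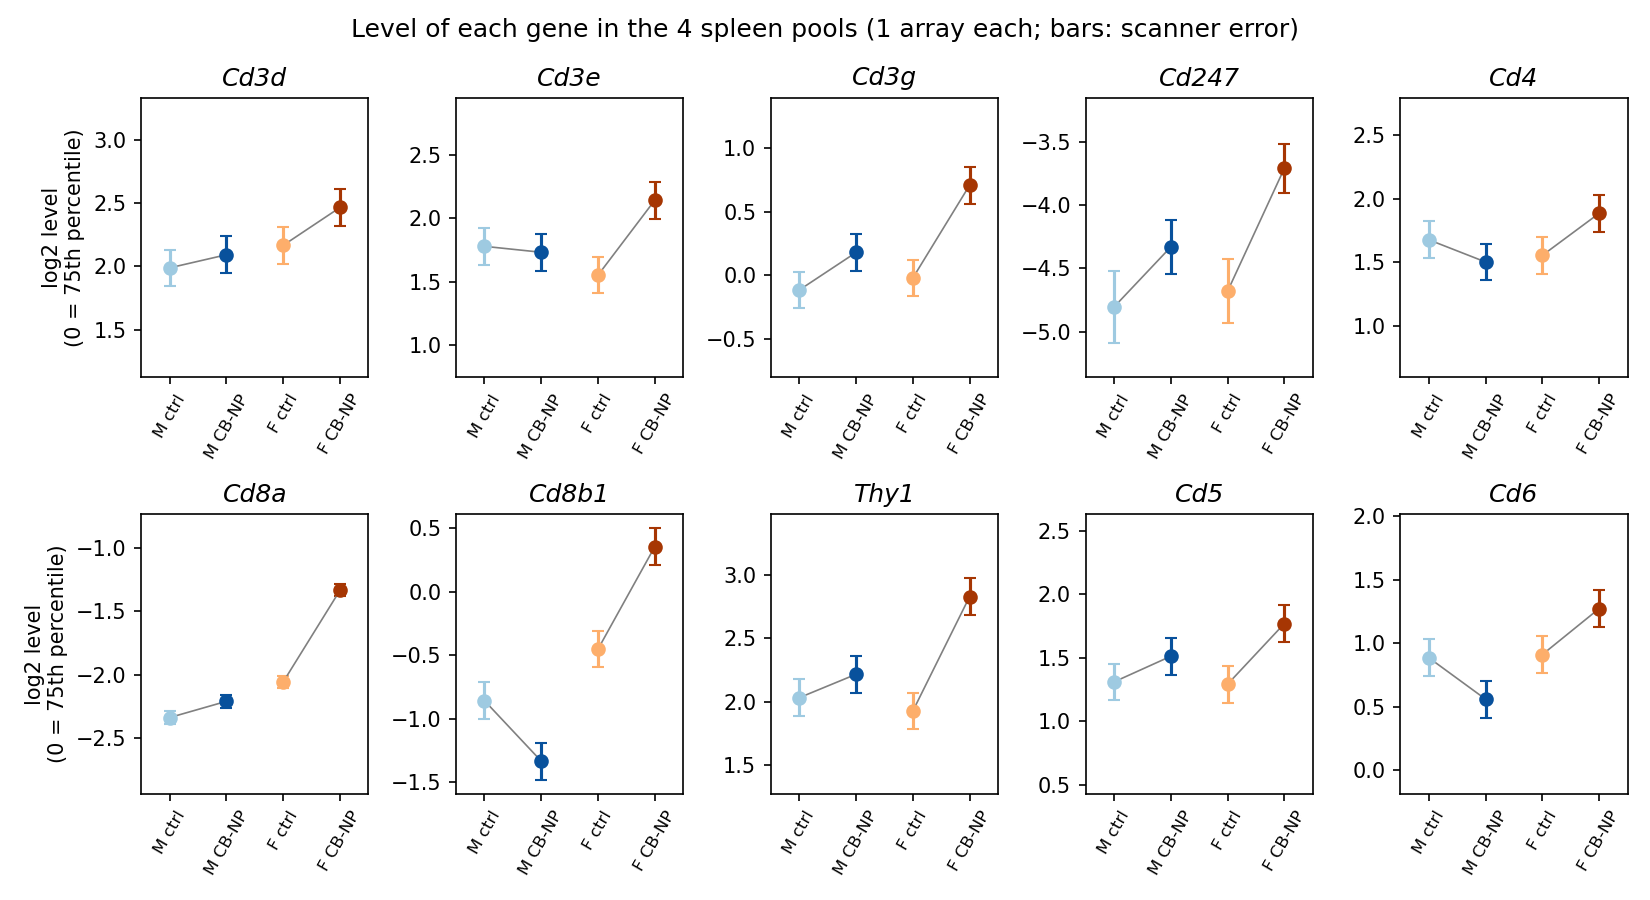
Log2 level of the main probe of each gene (y axis, relative to the 75th percentile of the array) in the 4 pools (x axis, M male, F female), 1 array each, with bars for the scanner error of a spot or, for Cd8a, of the mean of its spots. Every panel spans the same number of log2 units, grey lines join the pools of a sex, and the female CB-NP pool is the highest of the 4 in all 10 panels.

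Among the CD3 chains, Cd3e had processed signals of 1150 and 1130 in control and exposed males, and of 1150 and 1400 in control and exposed females. After scaling its log2 levels were 1.78, 1.73, 1.55 and 2.14. The female CB-NP pool was highest and the female control lowest, and the male pools lay between with a difference of -0.05. The female difference was 0.59 (scanner error 0.20), or 1.51-fold. CD3 epsilon pairs with both delta and gamma and is required for the receptor to reach the surface.

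Cd3g had signals of 309, 385, 386 and 518 and log2 levels of -0.12, 0.18, -0.02 and 0.71. Its differences were 0.30 in males (scanner error 0.20) and 0.73 (1.66-fold) in females. Cd3d, the partner of epsilon in the other dimer, had signals of 1330, 1450, 1760 and 1750. Its unscaled signal was therefore no higher in the female CB-NP pool than in the female control, and its scaled difference was 0.30, beside a scaling of 0.31 between these arrays. The male difference of Cd3d was 0.10, within the scanner error of 0.20. The difference of Cd3d minus that of its neighbour Cd3g was -0.43 in females (error 0.29) and -0.19 in males (error 0.29).

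Cd247, the zeta chain with the most signalling motifs, was the dimmest member. It read 12.0, 16.9, 15.3 and 24.2 intensity units. Its log2 differences were the highest of the 10 in both sexes, 0.47 in males (error 0.35) and 0.97 in females (error 0.32). With normexp background correction they were -0.02 and 0.40. That setting starts from median-pixel signals and backgrounds in place of the processed signal. It also adds an offset of 50 units, which weighs most on dim signals. Which of these steps moved the values was not tested. Printed repeats of other probes at 10 to 50 units scattered with a median SD of 0.18 to 0.23 between spots of 1 array, against 0.05 to 0.06 at 200 to 5000 units. Of the 10 main probes Cd247 had the widest scanner errors in both sexes.

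The CD8 coreceptor is a dimer of alpha and beta chains on cytotoxic T cells, and an alpha homodimer on some dendritic cells and innate-like T cells. Cd8a was read by a probe printed 10 times on the array, which gives a technical spread of its own. The spots ranged from 55.4 to 75.7 units in control males (median 68.9) and from 69.6 to 81 in exposed males (median 71.9). They ranged from 85.6 to 104 in control females (median 93.5) and from 116 to 135 in exposed females (median 125). The female CB-NP spots did not overlap those of any other pool, while the spots of the male pools overlapped each other. How many other repeated probes separated in this way was not counted. The mean log2 levels were -2.34, -2.21, -2.05 and -1.33, with SDs between spots of 0.14, 0.09, 0.09 and 0.06 (9 spots in the male CB-NP pool after 1 was set aside as an outlier, 10 in the others). The differences were 0.13 in males and 0.72 (1.65-fold) in females. The other Cd8a probe, near background at 17.4 to 36.2 units, gave 0.33 and 0.65. These spots are technical repeats of 1 pool and are not replicates of a condition.

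**Figure D2:**
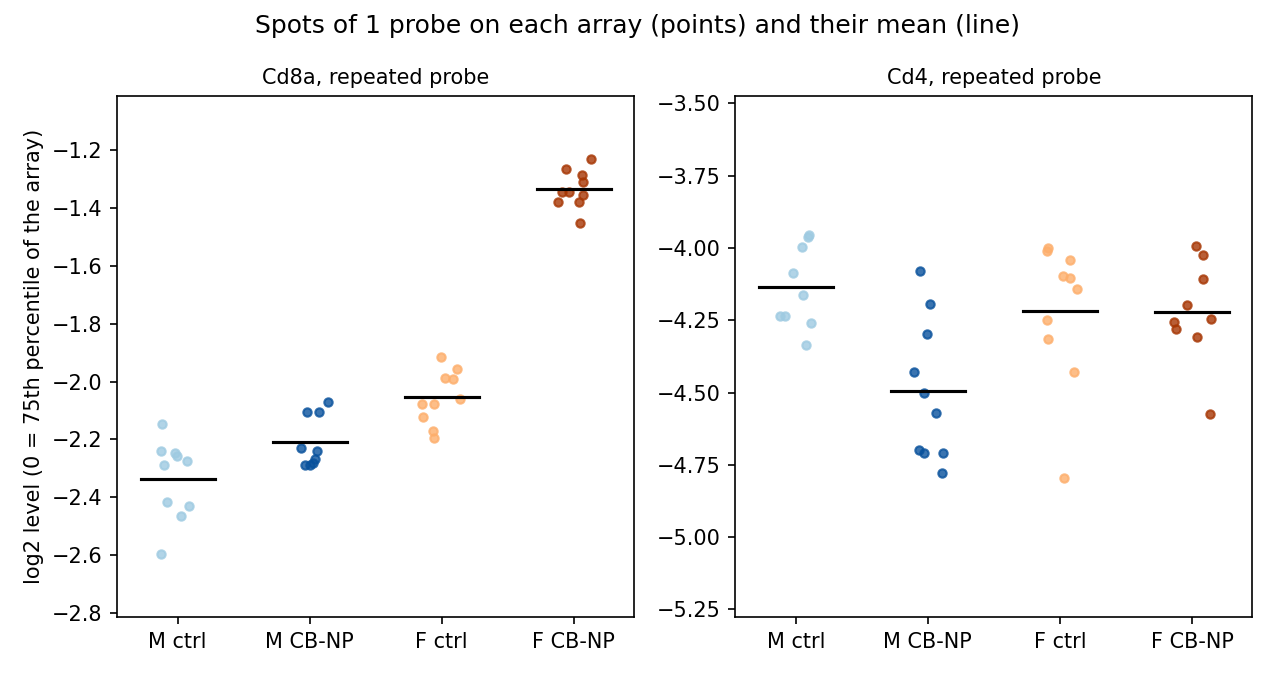
Log2 level (y axis, relative to the 75th percentile of the array) of each printed spot of the repeated Cd8a probe (left) and of the dimmer, repeated Cd4 probe (right) in the 4 pools (x axis); points are spots and lines their means. The Cd8a spots of the female CB-NP pool, at a mean of -1.33, lie above all others, and the Cd4 spots of the female pools share a mean of -4.22.

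Cd8b1, the beta chain, had signals of 185, 135, 287 and 406 and log2 levels of -0.86, -1.33, -0.45 and 0.36. The male CB-NP pool was the lowest and the female CB-NP pool the highest, 1.69 log2 units apart (3.23-fold), a difference that 0.078% of 14110 genes matched or exceeded. The male difference was -0.48 (1.39-fold lower, error 0.21) and the female difference 0.81 (1.75-fold higher, error 0.20). In males the alpha chain therefore differed from the beta chain by 0.60 (error 0.22), whereas the same value in females was -0.09 (error 0.22). Among control pools, Cd8a and Cd8b1 read higher in females by 0.28 and 0.41.

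Cd4, the coreceptor of helper T cells, had signals of 1070, 962, 1150 and 1170 and log2 levels of 1.68, 1.5, 1.55 and 1.88. The male difference was -0.17 and the female difference 0.33, beside the scaling of 0.31 between the female arrays. A second, repeated Cd4 probe near background gave -0.36 and -0.00, with SDs between spots of 0.14 to 0.25. Both probes read lower in exposed than in control males, and they disagreed in females. Cd8a exceeded Cd4 in its difference by 0.30 in males and 0.39 in females (error 0.21 to 0.22), on a scale from which the array scaling drops out.

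Of the remaining surface proteins, Thy1, a small glycolipid-anchored protein of all mouse T cells, had signals of 1370, 1580, 1490 and 2250 and log2 levels of 2.03, 2.22, 1.93 and 2.83. The exposed females stood above the other pools, and above the control females by 0.90 (1.87-fold, error 0.20). A value as high was found for 1.05% of 14076 genes. The male difference was 0.18, within its error.

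Cd5, which dampens receptor signals, had signals of 830, 969, 959 and 1080 and log2 levels of 1.31, 1.51, 1.29 and 1.77. Its difference was 0.20 in males, within the scanner error of 0.20, and 0.48 (1.39-fold) in females. Cd6, a related scavenger-receptor protein encoded close by, had signals of 619, 501, 737 and 766 and levels of 0.89, 0.56, 0.91 and 1.27. Its difference was -0.33 in males (1.25-fold lower, error 0.20) and 0.36 in females, beside the scaling of 0.31 between the female arrays. Its second probe, near background at 19.5 to 28.4 units, gave -0.21 and -0.24, and the probes thus disagreed in sign in females.

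The difference between the sexes was next taken as the female minus the male log2 difference, which has no test because no degree of freedom remains. It was above 0 for all 10 genes, beside 42.5% of 13936 genes, with a median of 0.55. It was largest for Cd8b1 (1.28, scanner error 0.29), followed by Thy1 (0.72), Cd6 (0.69), Cd3e (0.64) and Cd8a (0.59), and smallest for Cd3d (0.19) and Cd5 (0.28). At least 0.585 (1.5-fold) were 5 of 10, beside 4.58% of all genes. This count was 1 with median centring and 3 with all probes of a gene averaged. At least 1 (2-fold) was Cd8b1, beside 1.18%. None was below 0, as 57.5% of genes were (3.07% at 1.5-fold and 0.667% at 2-fold). In the control pools 6 genes were higher in females and 4 lower (52.4% and 47.6% of 14165 genes), from -0.23 for Cd3e to 0.41 for Cd8b1, with a median of 0.06. None was 1.5-fold different there, as 1.53% of genes were upwards and 2.53% downwards (0.254% and 0.522% at 2-fold). In the CB-NP pools all 10 were higher in females, from 0.26 for Cd5 to 1.69 for Cd8b1, with a median of 0.57, beside 43% of genes above 0. There 5 were at least 1.5-fold higher (1.91% of genes), or 2 with normexp and 3 with median centring, and 1, Cd8b1, at least 2-fold (0.397%), and none was lower (57% of genes below 0, 1.28% at 1.5-fold and 0.269% at 2-fold). These comparisons share arrays with each other and are given side by side only.

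**Figure D3:**
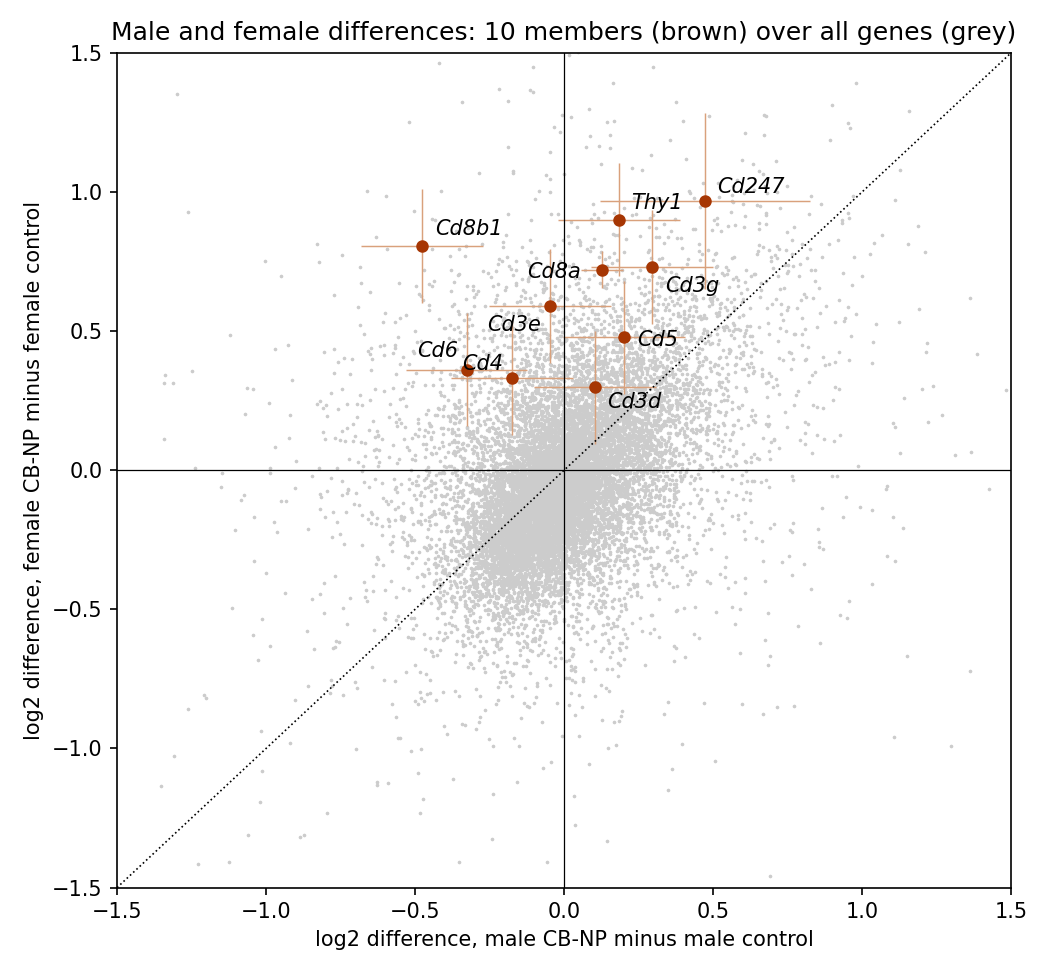
Log2 difference CB-NP minus control in males (x axis) and females (y axis) for the 10 genes (brown, bars for scanner error) over all genes well above background on all 4 arrays (grey; genes beyond 1.5 on either axis are not drawn). The dotted line marks equal differences, and all 10 genes lie above it, with Cd8b1 at -0.48 and 0.81 farthest from it.

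A limma model over both sexes, adjusted for sex and left with 1 degree of freedom, tested the effect shared by males and females. The spread behind its p values and intervals is that between the male and female differences, pooled in part over genes. It is not a spread between animals or replicate pools. None of the 10 genes passed after Benjamini-Hochberg adjustment over 14503 genes, with adjusted p from 0.321 to 0.97. Among all genes 0.0138% were called higher and 0.069% lower. Unadjusted, Cd247 and Cd3g were under 0.05 (limma p of 0.0154 and 0.0321), as were 1996 genes in all. Their shared differences were 0.72 (95% interval 0.24 to 1.2) and 0.51 (interval 0.08 to 0.95), above 0 in both sexes. The intervals of the other 8 included 0, and that of Cd8b1 was the widest, from -0.90 to 1.23. With normexp background correction limma called Thy1 (0.50, adjusted p 0.00428) and Cd3g (0.44, adjusted p 0.0172), among 359 genes called higher and 253 lower.

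Genes that act next to the receptor were examined as a list. Of 26 kinases, adaptors and partners, 23 were measured in females, of which 21 were above 0 and 5 at least 1.5-fold higher (4.38% of all genes), with a median of 0.34. In males 18 of 22 were above 0, with a median of 0.19 and none 1.5-fold higher (2.57% of all genes). Over all genes 43.3% were above 0 in females and 45.2% in males. Those past 1.5-fold in females included Cd2, an adhesion receptor of T and natural killer cells (0.36 in males and 0.86 in females), the kinase gene Zap70, whose product binds phosphorylated CD3 and CD247 (0.28 and 0.61), the adaptor gene Lat (0.28 and 0.61) and Rasgrp1, an activator of Ras (0.50 and 0.60). The brightest of the list were Vav1 (0.36 and 0.20) and Lck, whose product docks on CD4 and CD8 (0.02 and 0.36). Limma called none of the 23 genes tested, with a lowest adjusted p of 0.306. Unadjusted, 8 were under 0.05, beside 1996 of 14503 in all.

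Genes of naive T cells and recirculation were above 0 in 11 of 12 in males and 12 of 12 in females, with medians of 0.38 and 0.60, where 45.2% and 43.3% of all genes were above 0. Their brightest were Foxp1 (0.31 and 0.36), Klf2 (0.53 and 0.37) and Ets1 (0.36 and 0.61), all of which B cells also express. Of the genes of early T cell development, Ptcra, the pre-receptor chain of thymocytes, did not reach the well-above-background call anywhere. The list otherwise went both ways, with medians of 0.16 in males and 0.20 in females. Its brightest were Notch3 (-0.14 and 0.19), Cd1d1 (0.54 and 0.21) and Notch1 (-0.56 and -0.08). Regulatory and activation genes had medians of 0.19 and 0.49 over 8 measured members, as with Tnfrsf4 (-0.28 and 0.36), Tnfrsf18 (0.55 and 0.88) and Icos (0.34 and 0.50). Ctla4 and Cd40lg failed that call on all 4 arrays. Genes of gamma delta and innate-like T cells had medians of -0.00 and 0.26 over 7, with Tmem176b (0.08 and 0.08), Sox13 (-0.23 and -0.02) and Tmem176a (-0.01 and -0.17). Il17a and Il23r of this list were nowhere well above background. The gamma delta median in males ran from -0.00 to 0.06 over the settings tried. Limma called none of the genes of these 4 lists, with lowest adjusted p of 0.31, 0.306, 0.291 and 0.31 and with 8 of 12, 2 of 9, 3 of 8 and 2 of 7 genes under 0.05 unadjusted, beside 1996 of 14503 in all.

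**Figure D4:**
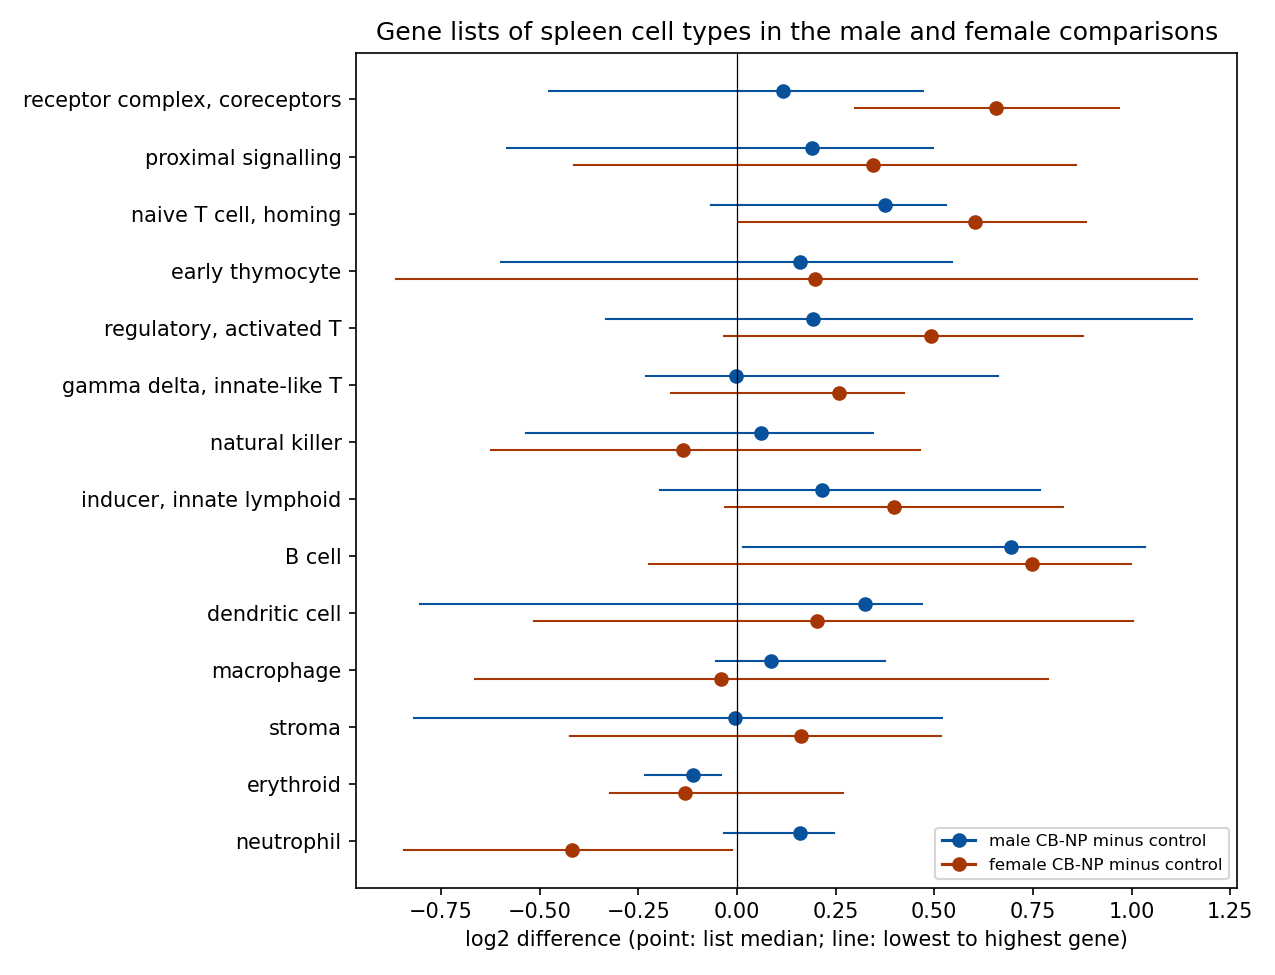
Log2 difference CB-NP minus control (x axis) for the receptor complex and coreceptors and for 13 other gene lists (y axis), in males (blue) and females (brown); points are list medians and lines run from the lowest to the highest measured gene. The receptor genes have medians of 0.12 and 0.66, whereas the B cell list is high in both sexes (0.70 and 0.75) and the neutrophil list is at 0.16 in males and -0.42 in females.

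Markers of other cells that can carry these genes were set beside them. Over all genes, 45.2% were above 0 in males and 43.3% in females. Natural killer genes, which share Cd247, had a median of 0.06 in males, from -0.03 to 0.12 over the settings tried, and of -0.14 in females (6 and 3 of 10 above 0), with Nkg7 at 0.08 and -0.04, Gzma at 0.04 and -0.53 and Prf1 at 0.14 and -0.10. Klrk1 and Klre1 were nowhere well above background. The unscaled summed signal of the list ranged from 4153 units in exposed to 6104 units in control females. The array scaling of 0.31 on the log2 scale is contained in that gap. Dendritic cell genes had medians of 0.32 and 0.20 (9 and 7 of 11 above 0), with Siglech at 0.04 and 0.20, Irf8 at 0.47 and 0.29 and Sirpa at 0.23 and 0.10. Xcr1, of the dendritic subset that carries CD8 alpha, was not well above background anywhere. Innate lymphoid and inducer cell genes had medians of 0.22 and 0.40 over 8. Their brightest were Ltb (0.77 and 0.74), which lymphocytes share, Kit (-0.00 and 0.04) and Id2 (-0.20 and -0.03).

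The B cell list had medians of 0.70 and 0.75, with 12 and 11 of 12 genes above 0 (45.2% and 43.3% of all genes). Its brightest were Cd79b (0.71 and 0.77), Blnk (0.74 and 0.79) and Ms4a1 (0.92 and 0.61). The signs of the female macrophage and male stroma medians turned between settings. Macrophage genes had medians of 0.09 and -0.04 (Csf1r 0.22 and 0.08, Vcam1 0.02 and -0.05, Hmox1 0.00 and -0.19), stroma genes -0.00 and 0.16 (Col1a2 0.04 and 0.10, Col3a1 0.03 and 0.16, Col1a1 -0.12 and 0.22) and erythroid genes -0.11 and -0.13 (Hba-a1 -0.04 and 0.27, Slc4a1 -0.23 and 0.01, Alas2 -0.12 and 0.12). Neutrophil genes had medians of 0.16 and -0.42, with 9 and 0 of 10 above 0, as with S100a9 (0.02 and -0.01), S100a8 (-0.03 and -0.34) and Camp (0.21 and -0.49). The summed neutrophil signal, not scaled between arrays, was 466520 and 498570 units in control and exposed males and 579680 and 394930 in control and exposed females. The scaling of 0.31 between the female arrays is contained in the gap between the female sums. The pool in which the receptor genes were highest had the lowest neutrophil sum. Its unscaled sums were also the lowest for the natural killer, gamma delta, macrophage, stroma, erythroid and pancreatic lists, but not for the other lists. The 75th percentile of that array was the lowest as well (317 units). The part of neutrophil signal in the receptor gene result was not tested.

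Eosinophil genes were lower in both CB-NP pools in 6 of 6, with medians of -2.47 and -2.23 (54.8% and 56.7% of all genes were below 0). Their brightest were Ear2 (-1.06 and -1.31), Prg2 (-3.33 and -2.36) and Ear6 (-3.16 and -2.61). Genes of the exocrine pancreas, which lies beside the spleen, had medians of -2.98 and -3.39 over the 8 that were well above background on all 4 arrays (Ctrb1 -6.15 and -4.65, Clps -5.07 and -3.64, Cela1 0.21 and -0.59). The unscaled summed signals of all 19 listed genes were 8173 and 728 units in control and exposed males and 8147 and 689.8 in control and exposed females. The part of neighbouring tissue in the T cell results was not tested. Limma called 6 of 17 pancreatic genes lower (lowest adjusted p 0.0171), beside 0.069% of all genes. It called none in the natural killer, dendritic, inducer, B cell, macrophage, stroma, erythroid, neutrophil and eosinophil lists. In that order their lowest adjusted limma p was 0.336, 0.31, 0.276, 0.276, 0.412, 0.31, 0.46, 0.467 and 0.103. Under 0.05 unadjusted were 2 of 10, 5 of 11, 5 of 9, 11 of 12, 0 of 11, 2 of 13, 0 of 9, 0 of 10 and 6 of 6. Over all genes 1996 of 14503 were under 0.05.

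The genes varied among themselves around a common profile over the pools. The mean profile of the 10, each centred on its own mean, was -0.20, -0.16, -0.13 and 0.49. The closest member was Cd3g, with a root mean square difference of 0.10, and the farthest was Cd8b1 at 0.40. Among 13450 other named genes well above background on all 4 arrays, the 8 closest profiles were those of Tcl1b4 (0.04), Tdrp (0.04), Tmem44 (0.04), Aurkc (0.04), Ddr2 (0.05), Cbx8 (0.05), Bcl11b (0.05) and Nsg2 (0.05). Bcl11b, a transcription factor of T cell commitment that is also on the signalling list, differed by -0.07 in males and 0.53 in females. With 4 values per gene and 13450 candidates, close profiles are a description of these arrays.

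**Figure D5:**
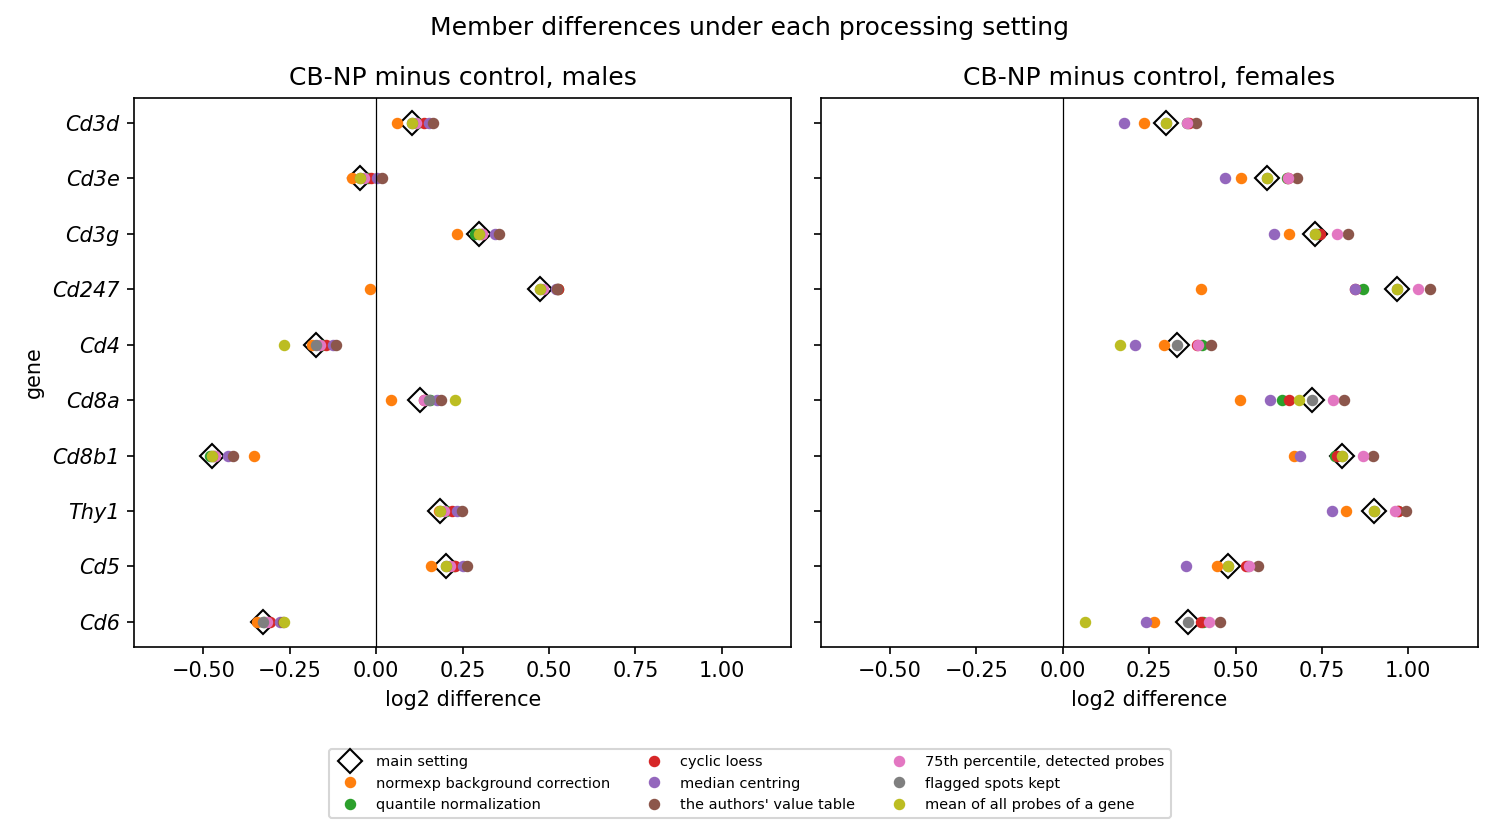
Log2 difference CB-NP minus control (x axis) of each gene (y axis) in males (left) and females (right) under the main setting (open diamonds) and 8 processing alternatives (coloured points). All female values stay above 0, the lowest being 0.06 for Cd6 with all its probes averaged, and the widest spread is that of Cd247 with normexp.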

How the data were processed

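Each of the 4 RNA pools was hybridised to its own Cy3-labelled Agilent array (design 028005, grid build mm9), scanned by the authors with Feature Extraction 10.10.1.1 per the file headers. The deposited processed signal is a linear intensity after the scanner software's background subtraction and detrending. Also deposited were median-pixel intensities, signal errors and, per the file headers, other columns of 0/1 flags. The authors' value table was this signal multiplied by an array constant between 2.64 and 3.49, to an unknown target, with column medians of 75.2, 76.1, 68.9 and 79.4 for control males, exposed males, control females and exposed females.

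From the deposited signal, log2 values of unflagged spots were averaged per probe, minus the array's 75th percentile. Of 55681 probes, 26762 matched 20284 genes by RefSeq accession (GRCm38.p6, names and neighbours only). Genes well above background on both arrays were compared at 1.5-fold and 2-fold without a test. Limma was fitted to genes well above background on 2 or more arrays and tested on simulated data. The design named the raw and background columns without a pixel statistic, and median-pixel columns were used. The members and the 15 other lists were chosen with earlier results of these data known. Named were all members, list genes 1.5-fold different (signalling) or the brightest (2 signalling, 3 elsewhere), and the 8 nearest profiles, and a result that this rule would name is not reported here. Alternatives covered background correction, scaling, probe choice and filters. Software was Python 3.11.15, pandas 2.3.3, numpy 2.4.6, matplotlib 3.10.9, R 4.3.3 and limma 3.58.1.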

Additional observations from a re-analysis of the deposited data

Results flagged for a closer look

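For 4 genes the male and female pairs went opposite ways, which drew attention to them: the male difference was below 0 and the female difference above 0, each from 1 pair of pools. The female minus male value was 1.28 for Cd8b1 (-0.48 and 0.81), 0.69 for Cd6 (-0.33 and 0.36), 0.64 for Cd3e (-0.05 and 0.59) and 0.51 for Cd4 (-0.17 and 0.33). The difference between the sexes was not tested. The male values of Cd3e and Cd4 lay within their scanner error of 0.20. The female values of Cd4 and Cd6 lay close to the scaling of 0.31 between the female arrays. The male value of Cd3e was 0.00 with median centring and 0.02 with the authors' value table, and the second probes of Cd4 and Cd6 gave -0.36 and -0.21 in males and -0.00 and -0.24 in females.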

How the results depend on the processing

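The median of the 10 genes kept its direction in every comparison and setting, with ranges of 0.01 to 0.18 in males, 0.48 to 0.75 in females and 0.00 to 0.18 between the control pools. The number at least 1.5-fold higher in females moved from 6 to 3 with normexp, and at least 2-fold higher from 0 to 1 with the authors' value table and with the percentile over detected probes. Between the CB-NP pools the number at least 1.5-fold higher moved from 5 to 2 with normexp and to 3 with median centring, and for the female minus male difference from 5 to 1 with median centring and to 3 with all probes averaged. Limma called 0 of 10 in the main setting (2 under 0.05 unadjusted) and 2 with normexp. It called 0 in the other 8 settings, without a sex term and with an intensity trend included. Directions turned for Cd247 with normexp (from 0.47 to -0.017 in males and from 0.12 to -0.13 between the controls). They also turned for Cd3e in males (0.0017 with median centring, 0.017 with the authors' value table), for Cd4, Thy1 and Cd5 between the controls with median centring (0.00093, 0.018 and 0.11), and for Cd6 in limma (-0.018 with median centring, -0.040 with normexp). Median centring moved the female median of all genes from -0.04 to -0.17. The cause of each change was not tested. No paired analysis was possible because each group was 1 pool and the labels number no replicates. For the same reason no replicate could be left out, and signal near background limits Cd247 and the second probes.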
